A study of Homo sapiens with 47 samples.

Results

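Expression of 8 genes of the EGFR family was described in single circulating tumor cells (CTC) and in cultured cells of the same tumor line. The members were the receptor genes EGFR, ERBB2 and ERBB3, the ligand genes AREG, EREG, HBEGF and TGFA, and the feedback inhibitor gene ERRFI1. They were 8 of the 25739 genes in the deposited table and were listed by name, for their levels in CTCs and culture and for the presence of ligand and receptor in the same cell. Because these levels led to the choice of the genes, their differences between CTCs and culture are given as a description without a test.

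ERBB receptors are receptor tyrosine kinases that pair with each other once a ligand is bound. EGFR binds amphiregulin (AREG), epiregulin (EREG), heparin-binding EGF-like growth factor (HBEGF) and transforming growth factor alpha (TGFA), ERBB2 (HER2) has no known ligand and acts as a partner, and ERBB3 binds neuregulins and has little kinase activity of its own. The ligands are made as membrane proteins and are released by sheddases, so that a cell that carries both ligand and receptor can stimulate itself or its neighbors. EGFR is frequently expressed in triple-negative breast cancer (TNBC), which lacks HER2 amplification and hormone receptors.

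LM2 is a lung-metastatic derivative of the human TNBC line MDA-MB-231. In the study, GFP-labeled LM2 cells were placed in the mammary fat pad of young NSG mice, which lack T, B and NK cells but keep myeloid cells and red blood cells. CTCs were enriched from terminal blood, stained for CD45 as a negative marker and picked by their GFP signal, and each picked cell gave 1 SMARTseq2 library, a full-length cDNA method without molecular identifiers. Values were present for 37 CTCs, with 2 from mouse 5541, 4 from mouse 5542, 10 from mouse 5545, 17 from mouse 5546 and 4 from mouse 5549, and for 6 LM2 cells from culture (LM-1, LM-2, LM-3, LM-10, LM-P3 and LM-P4). The mice carried the same tumor line and received no other labeled treatment, and all groups are thus a model of 1 human line. The mouse was the replicate for CTCs, and the cultured cells were 1 sample without a replicate of its own.

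Reads on genes ranged from 469614 to 2041333 per CTC and from 776949 to 1186197 per cultured cell, and genes detected ranged from 2227 to 11010 and from 7226 to 12271. All 8 markers of the tumor line, including VIM and CD44, had reads in each of the 37 CTCs and 6 cultured cells. CTC 5545-6 stood apart with 2227 genes detected, and the libraries of mouse 5546 split by a letter in their names, with 7438 to 11010 genes detected in the 9 with c and 4225 to 6942 in the 8 with s. Reads assigned to markers of blood cells were also present in CTCs. Blood cells of the hosts are mouse cells, while reads were aligned to the human genome alone. Mouse reads were thus not separated from human reads, and the species of these reads was not tested. The erythroid gene HBB had reads in 35 of 37 CTCs, the neutrophil gene S100A9 in 30, and PTPRC, the gene for CD45, in 11, and none of the 3 had a read in culture. Of the other neutrophil genes in the table, CSF3R and LCN2 had reads in 10 CTCs each, CXCR2 in 5, and MPO and FCGR3B in 2 each. The summed level of the 9 leukocyte genes in the table was 5.47 to 786 in CTCs and 75.3 to 400 in culture, where it came from LAPTM5, in 6 of 6 cultured cells at a mean of 277 (107 in CTCs), and from CD14, in 1 cultured cell. No 2 libraries had equal read numbers in more than 4.73% of their genes, so none was taken as a copy of another.

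The unit throughout is the normalized count, which is the read number of a gene scaled by the DESeq2 size factor of its cell. Levels were averaged over the CTCs of a mouse, and a log2 ratio compares the mean of the 5 mouse means with the culture mean after 1 was added to both. A gene was past the rule of size when every mouse mean was at least 4-fold above, or every one at least 4-fold below, the culture mean, and the larger of CTC and culture mean reached 8. The median log2 ratio of the 9164 genes that could pass was -1.20, and it was -0.45 when the recovered reads were scaled to the total reads of each cell instead (CPM), so that ratios of single genes are to be read against this shift. Over the 7 members that could pass, the median was -0.19. The reads of each mouse were also summed and set against those of the culture with edgeR's quasi-likelihood test, which called 0 of 13813 genes after Benjamini-Hochberg adjustment (0% called), with 241 genes at an unadjusted p under 0.05. Without a filter on low counts it called 27 genes, and DESeq2 called 15.

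AREG and EREG are neighbors in a cluster of EGF-like ligand genes. On chromosome 4 of GRCh38 the cluster holds EPGN, EREG (74365145 to 74388749), AREG (74445136 to 74455005) and BTC, which are the 4 protein-coding genes of a stretch of 486 kb, and 56.4 kb separate EREG from AREG. HBEGF lies on chromosome 5 (140332843 to 140346603, minus strand). The 250 bases before the annotated start of these 3 ligand genes are given here, 5′ to 3′ on the strand of the gene, because these are the ligands whose order differed between CTCs and culture. They are from RefSeq (GRCh38.p14), in which 7 of the 8 members matched. Capitals mark matches to 4 short motifs searched on both strands, the cAMP response element (CRE) TGACGTCA, the AP-1 site TGACTCA, the TEAD site CATTCC and the TATA box TATAAA.
AREG, chr4:74444886-74445135, plus strand: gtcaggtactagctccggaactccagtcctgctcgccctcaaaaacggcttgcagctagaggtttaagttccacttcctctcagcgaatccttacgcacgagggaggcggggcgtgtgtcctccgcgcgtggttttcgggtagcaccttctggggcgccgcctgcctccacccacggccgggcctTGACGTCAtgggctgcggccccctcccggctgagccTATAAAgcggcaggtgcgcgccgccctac
EREG, chr4:74364895-74365144, plus strand: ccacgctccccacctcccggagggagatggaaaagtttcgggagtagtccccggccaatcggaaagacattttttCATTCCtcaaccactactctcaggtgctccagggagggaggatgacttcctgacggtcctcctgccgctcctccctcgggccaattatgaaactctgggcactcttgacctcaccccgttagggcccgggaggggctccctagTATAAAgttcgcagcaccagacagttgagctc
HBEGF, chr5:140346604-140346853, minus strand: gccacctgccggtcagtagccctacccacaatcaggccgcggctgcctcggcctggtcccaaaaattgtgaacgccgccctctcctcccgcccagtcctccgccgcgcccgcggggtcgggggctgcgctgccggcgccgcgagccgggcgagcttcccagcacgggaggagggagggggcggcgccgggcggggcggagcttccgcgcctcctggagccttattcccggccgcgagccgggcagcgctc

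The AREG window held the CRE letters from 65 to 58 bases before the start and a TATA box from 29 to 24 bases before it. The EREG window held a TATA box from 32 to 27 bases before the start and the TEAD letters from 175 to 170 bases before it. No match to the 4 motifs was found in the HBEGF window, and no 2 matches overlapped. Of 34943 RefSeq promoter windows of this length, 1.63% held the CRE, 4.22% the AP-1 site, 11.9% the TEAD site and 10.8% the TATA box. A match describes the letters of the window and was not measured as a bound site.

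AREG was the member with the largest difference, and it was higher in the CTCs of each of the 5 mice. The cultured cells had normalized counts of 23.9 (LM-1), 23.7 (LM-P3), 22.6 (LM-P4), 4.10 (LM-3), 0 (LM-2) and 0 (LM-10), a mean of 12.4. The 2 CTCs of mouse 5541 had 523 and 13.3, the 4 of mouse 5542 had 2312, 562, 176 and 48.9, and the 4 of mouse 5549 had 4006, 58.3, 44.1 and 35.9. The 10 CTCs of mouse 5545 ranged from 0 to 1068 with a median of 122, and the 17 of mouse 5546 from 0 to 956 with a median of 53.9. In all, 28 of the 37 CTCs lay above the highest cultured cell, and the remaining 9 overlapped with the culture.

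The mean of AREG was 268, 775, 298, 159 and 1036 in mice 5541, 5542, 5545, 5546 and 5549. The log2 ratio of CTCs to culture was 5.25 (SD of the mouse ratios 1.12, n = 5 mice), with a range of 12.0-fold to 77.5-fold by mouse. AREG was past the rule of size and was 1 of 6 genes past it in this direction, of 9164 that could pass (0.0655%). With CPM the log2 ratio was 5.82, and AREG was past the rule there too. The call rested on single cells in 2 mice. Without its highest CTC (5549-6), mouse 5549 had a mean of 46.1, which is 3.52-fold over culture, and AREG no longer met the rule. Without CTC 5541-1, mouse 5541 was left with 1 CTC at 1.07-fold. Mice 5542, 5545 and 5546 each remained at least 8.25-fold higher without their highest CTC. When the median of the CTCs was taken within each mouse, the log2 ratio was 3.60 and the rule was again not met.

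Reads of neutrophil markers were compared with AREG because myeloid cells can also express this ligand. The summed normalized count of the 6 neutrophil genes in the table ranged from 0 to 574 in CTCs and was 0 in all cultured cells, and it was 0 in both CTCs of mouse 5541, 1 of which had an AREG value of 523. Of the 8 genes listed as neutrophil markers, those 6 each had a read in some CTC, but S100A9 made up most of the sum. Its mean over CTCs was 89.7, beside 94.6 for the sum. S100A9 had reads in 30 CTCs, and no other neutrophil gene had reads in more than 10. The 7 CTCs without any neutrophil read, from 2 mice, had AREG values from 0 to 523 with a median of 157, and 4 of them lay above the highest cultured cell. The 30 CTCs with such reads had values from 0 to 4006 with a median of 73.2. Spearman's ρ of AREG with the neutrophil sum over the 37 CTCs was -0.089, and with the erythroid sum 0.263. In the 7 CTCs without neutrophil reads, which came from mice 5541 and 5545 alone, the log2 ratio of AREG to culture was 4.10. It was 5.25 over the CTCs of all 5 mice. Over all their CTCs, mice 5541 and 5545 had AREG means of 268 and 298, beside 775, 159 and 1036 in mice 5542, 5546 and 5549. The 2 ratios thus differ in the mice as well as in neutrophil reads. The part of blood-cell RNA in the level of AREG was not tested, and neither was whether mouse reads were counted under AREG.

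EREG was detected in 36 of 37 CTCs and 5 of 6 cultured cells, and its mean was above the culture mean in each mouse. Cultured cells had values of 141 (LM-1), 109 (LM-P3), 66.2 (LM-P4), 64.3 (LM-3), 60.3 (LM-10) and 0 (LM-2), a mean of 73.5. CTCs ranged from 0 to 1284 with a median of 156, and 21 of them lay above the highest cultured cell. The groups overlapped, since 16 CTCs lay within the range of the culture.

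The mouse means of EREG were 167, 147, 126, 256 and 320, in the order used for AREG. The log2 ratio was 1.45 (SD 0.56, n = 5 mice) and 2.18 with CPM. EREG was not past the rule of size. All 5 mouse means were above the culture mean for 2 members, AREG and EREG, and for 1.04% of the 9164 genes. The spread of EREG between mice was small beside that within mouse 5546, where the CTCs ran from 2.06 to 1284.

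HBEGF, the leading ligand of the culture, was lower in the CTCs of 4 mice and higher in those of mouse 5541. Cultured cells had 268 (LM-3), 225 (LM-1), 182 (LM-P4), 165 (LM-P3), 155 (LM-10) and 40.1 (LM-2), a mean of 173. CTCs ranged from 0 to 316 with a median of 49.0, with 16 below the lowest cultured cell and 1 above the highest. Reads were present in 32 CTCs and in all 6 cultured cells.

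The mouse means of HBEGF were 215, 99.6, 54.5, 57.0 and 35.9. The log2 ratio was -0.89 (SD 0.99, n = 5 mice), 0.31 above the median of all genes, and with CPM it was -0.21. The CTCs of mouse 5541 had 115 and 316, while 5549-6, the CTC with the highest AREG, had no read of HBEGF.

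TGFA was found only in culture. Of 46638651 reads on genes in the 37 CTCs, 0 came from TGFA, and 0 of 37 CTCs allows a share of up to 8.11% of CTCs with a read. The cultured cells had 41.4 (LM-10), 16.6 (LM-P3), 9.95 (LM-1), 9.68 (LM-P4), 0 (LM-2) and 0 (LM-3), a mean of 12.9, from 49 reads of 5522296. At a floor of 3 reads over all CTCs, the read counts put a bound of 138-fold on how much lower TGFA was in CTCs on the CPM scale. With 3 reads per mouse the bound ranged from 8.32-fold to 62.5-fold by mouse. These bounds take each read as an independent molecule, which reads without molecular identifiers are not. They are thus no firm limit on the difference between cells. LM-10 held 24 of the 49 reads, and without it the bound over all CTCs was 81.9-fold.

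TGFA was past the rule of size, lower in CTCs, and was 1 of 487 such genes of 9164 (5.31%). All 5 mouse means were below the culture mean for 60.3% of the 9164 genes, while fewer genes had no read in any CTC. Among the 9394 genes with reads in at least 4 cultured cells, 14 (0.149%) had no read in any CTC, and among the 2191 with reads in exactly 4 cultured cells, as for TGFA, 11 (0.502%) had none. The call was lost when LM-10 was left out, since the culture mean then fell below 8. TGFA lies on chromosome 2 (70447284 to 70554193, minus strand), and the lncRNA within its span shares no exon base with it.

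**Figure D1:**
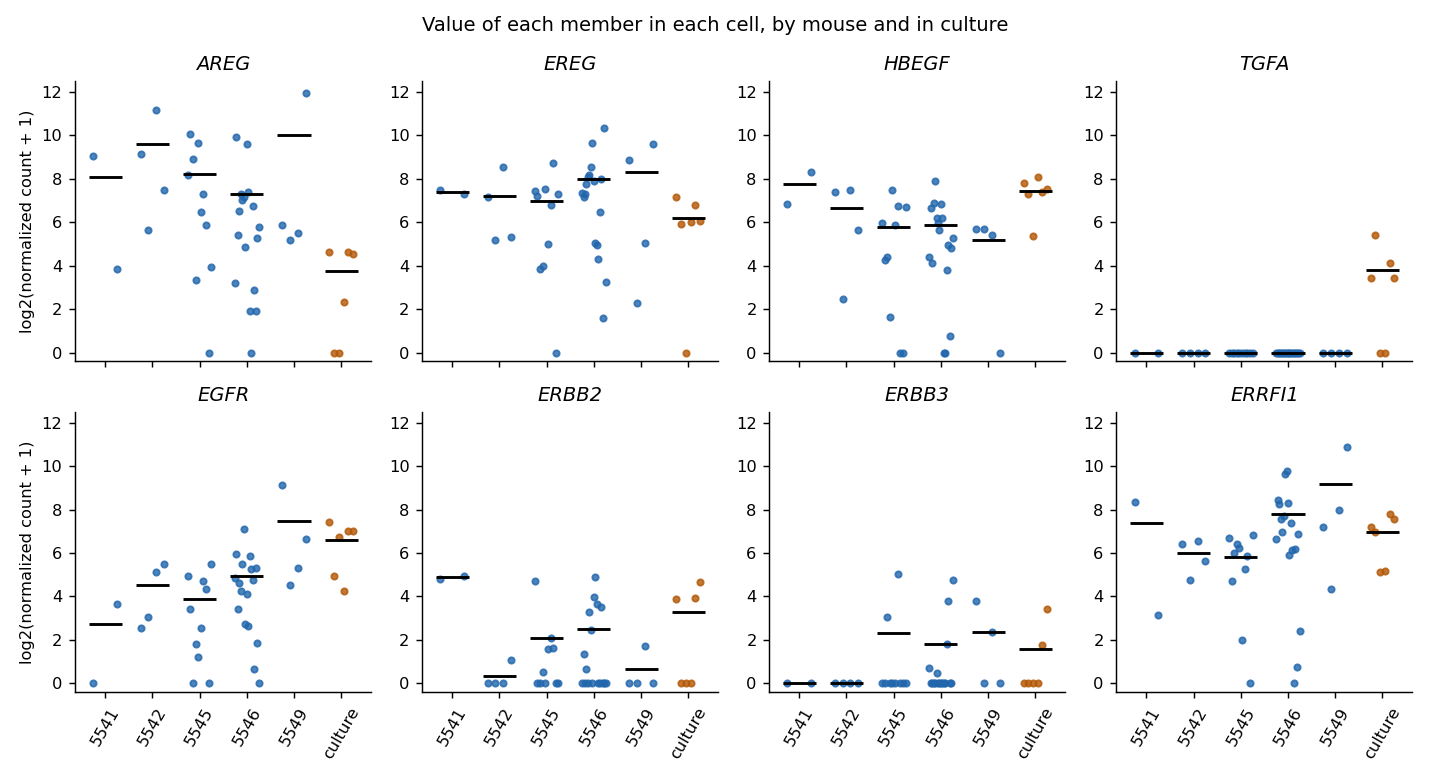
Normalized count of each member in each cell, as log2 of the value plus 1, for the CTCs of 5 mice (blue) and 6 cultured LM2 cells (orange). Each point is 1 cell and the bar is log2 of the group mean plus 1. AREG points of CTCs reach 4006 against at most 23.9 in culture, and all 37 CTCs are at 0 for TGFA.

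The make-up of the ligands was compared between CTCs and culture as a description. Levels were compared between genes per kilobase of the main transcript, which is 1.23 kb for AREG, 4.62 kb for EREG, 2.36 kb for HBEGF and 4.12 kb for TGFA. In culture, HBEGF was the top ligand in 6 of 6 cells, with a median share of 71.4% of the summed ligand level per kilobase. In CTCs, AREG was the top ligand in 25 cells, EREG in 9 and HBEGF in 2, and CTC 5545-6 had none of them. The lead of AREG over EREG depends in part on the division by transcript length. Before it, the median over CTCs was 88.0 for AREG and 156 for EREG, and the mean was 364 and 211. The median share of AREG was 64.8% in CTCs and 7.82% in culture, and AREG made up more than 90% of the ligand level in 5 CTCs.

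The mix varied among CTCs of the same mouse. AREG led in 4 of 4 CTCs of mouse 5542 and 3 of 4 of mouse 5549, whereas in mouse 5546 AREG led in 10 CTCs and EREG in 7. Libraries of mouse 5546 with the letter c had AREG on top in 6 of 9 and those with s in 4 of 8. In mouse 5541 the CTCs differed, with AREG at 83.0% in 5541-1 and HBEGF as the top ligand in 5541-5.

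**Figure D2:**
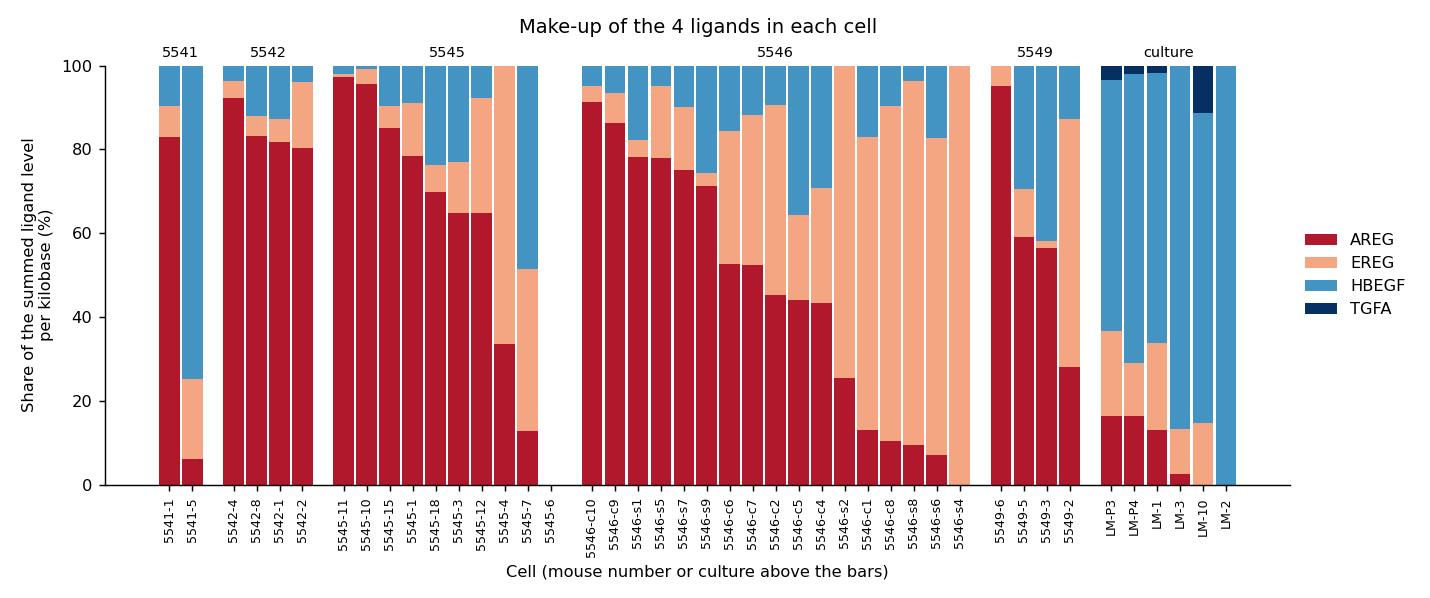
Share of AREG, EREG, HBEGF and TGFA in the summed ligand level per kilobase of each cell, in percent, ordered within each mouse and culture by the share of AREG. HBEGF takes the largest part of the bar in 6 of 6 cultured cells, and AREG in 25 of 37 CTCs. The empty place is CTC 5545-6.

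Among receptors, EGFR (chromosome 7, 55019017 to 55211628) was the most often detected. Reads were present in 33 of 37 CTCs and in all cultured cells. Cultured cells had 173 (LM-1), 129 (LM-P4), 127 (LM-P3), 107 (LM-2), 29.3 (LM-10) and 17.8 (LM-3), a mean of 97.2. CTCs ranged from 0 to 553 with a median of 19.1, with 17 below the lowest cultured cell and 1 above the highest. The remaining 19 CTCs overlapped with the culture.

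The mouse means of EGFR were 5.74, 22.4, 13.6, 30.1 and 179. Mouse 5549 was above the culture mean through CTC 5549-2, at 553, without which the mean of that mouse was 53.8. The log2 ratio was -0.94 (SD 1.76, n = 5 mice) and lay 0.26 above the median of all genes. It was -0.07 with CPM, and -2.37 without mouse 5549. A lncRNA on the opposite strand, EGFR-AS1, shares 186 exon bases with EGFR, and because strand was ignored in counting, reads from that stretch cannot be told apart.

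ERBB2 (chromosome 17, 39687914 to 39730426) had few reads. It was detected in 17 CTCs and 3 cultured cells, with values of at most 30.2 in CTCs and 24.2 in culture. Its mouse means were 28.6, 0.270, 3.31, 4.76 and 0.581, beside a culture mean of 8.73. Both CTCs of mouse 5541 had ERBB2, at 27.0 and 30.2. The log2 ratio of -0.19 (SD 1.81, n = 5 mice) became 0.53 with CPM and -1.59 without mouse 5541. ERBB2 shares 571 exon bases with MIEN1 and 144 with PGAP3, both on the opposite strand.

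ERBB3 (chromosome 12, 56076799 to 56103505) had reads in 9 CTCs of 3 mice and in 2 cultured cells. Its mouse means were 0, 0, 3.92, 2.48 and 4.23, and the culture mean was 2.01, all too low to pass the rule of size. The highest CTC was 5545-3 at 31.97. The counts of 0 of 2 and 0 of 4 CTCs in mice 5541 and 5542 allow shares of up to 100% and 75.0% with a read. A gene on the same strand shares 31 exon bases with ERBB3.

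ERRFI1 (chromosome 1, 8004404 to 8026309, minus strand) encodes MIG6, which binds the EGFR kinase domain and is itself induced by EGFR signaling. It was detected in 35 CTCs and all cultured cells. Cultured cells had 223 (LM-P3), 187 (LM-P4), 145 (LM-1), 122 (LM-10), 35.6 (LM-3) and 33.9 (LM-2), a mean of 125. CTCs ranged from 0 to 1880 with a median of 84.0, and they reached from below the lowest (9 CTCs) to above the highest cultured cell (8 CTCs). A lncRNA on the opposite strand shares 155 exon bases with ERRFI1.

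The mouse means of ERRFI1 were 165, 63.1, 55.8, 220 and 574, with 3 above and 2 below the culture mean. The log2 ratio was 0.79 (SD 1.37, n = 5 mice). It was 1.48 with CPM, and it changed sign to -0.13 when the median of CTCs was taken within mice. The median log2 ratio of all genes was -1.81 in that setting. ERRFI1 thus lay 1.67 above it, beside 1.99 above the median of all genes in the main setting. CTC 5549-6, which had the highest AREG, also had the highest ERRFI1, and without the highest CTC the log2 ratio was 0.04.

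**Figure D3:**
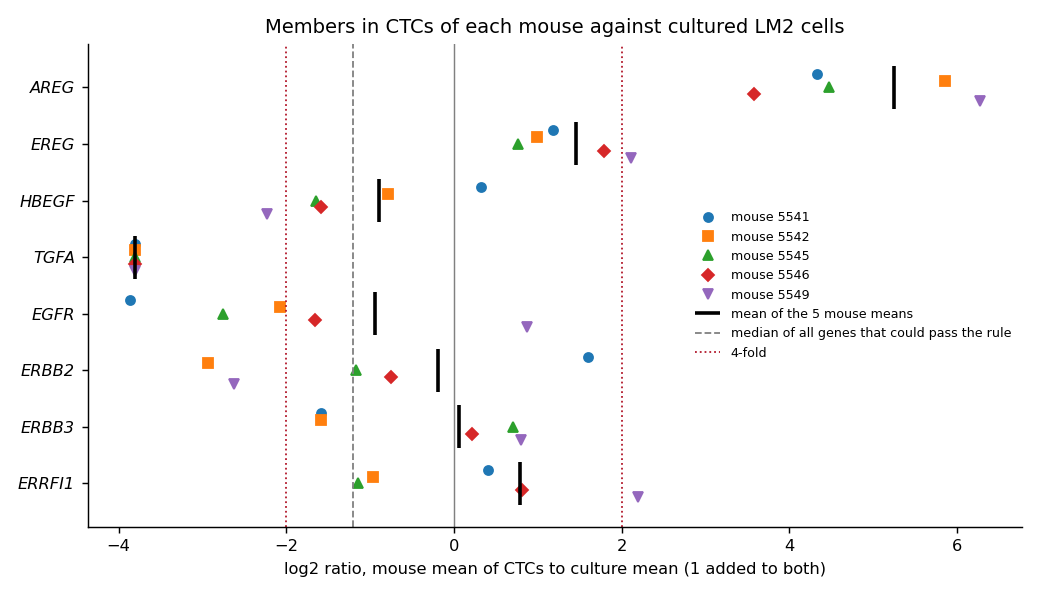
Log2 ratio of the mean of the CTCs of each mouse to the culture mean, after 1 was added to both, for the 8 members. Symbols are mice, black bars are the mean of the 5 mouse means, the dashed line is the median of all genes that could pass the rule of size (-1.20) and dotted lines mark 4-fold. AREG lies to the right of the 4-fold line in 5 of 5 mice and TGFA to the left of it.

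Per kilobase, the order of levels in CTCs was AREG at 411 (SD over mice 307, n = 5), ERRFI1 at 69.6 (SD 68.4), EREG at 44.02 (SD 17.8), HBEGF at 39.2 (SD 30.7), EGFR at 5.06 (SD 7.32), ERBB2 at 1.65 (SD 2.62), ERBB3 at 0.379 (SD 0.365) and TGFA at 0. AREG had the highest level in each of the 5 mice. ERRFI1, EREG and HBEGF changed places between mice, with ERRFI1 above EREG in 3 of 5 mice and EREG above HBEGF in 3 of 5. EGFR was above ERBB3 in 5 of 5 mice and above ERBB2 in 4, and ERBB2 was above ERBB3 in 4. In culture the order was HBEGF at 73.2, ERRFI1 at 40.2, EREG at 15.9, AREG at 10.0, EGFR at 9.81, TGFA at 3.14, ERBB2 at 1.92 and ERBB3 at 0.358.

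The question of whether ligand and receptor occur in the same cell was addressed by detection, meaning a value above 0. EGFR and at least 1 of the 4 ligands were detected together in 33 of 37 CTCs, or 89.2% (exact 95% binomial interval 74.6% to 97.0%, counting error only, since reads are not independent molecules and CTCs of a mouse share their source). Every CTC with EGFR thus had a ligand. The same held in 6 of 6 cultured cells. Of all 37 CTCs, 36 had at least 1 ligand, so nearly any gene detected in CTCs would be found with a ligand. EGFR with AREG, EREG and HBEGF all present was found in 29 CTCs, or 78.4%, and in 4 of 6 cultured cells. When a value of at least 8 was required, EGFR with a ligand was found in 62.2% of CTCs.

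By pair, EGFR was found with EREG in 33 CTCs, with AREG in 32 and with HBEGF in 29. AREG and EREG occurred together in 35 CTCs, and the 3 ligands together in 32. ERBB2 was detected with EGFR in 16 of its 17 CTCs, and ERBB3 with EGFR in 7 of its 9. All 3 receptors were present in 4 CTCs, and EGFR was the sole receptor of the 3 in 14. All 17 CTCs with ERBB2 had AREG and EREG, and all 9 CTCs with ERBB3 had AREG, EREG and HBEGF. Among all 37 CTCs, AREG and EREG were together in 35 and the 3 ligands in 32. The counts by pair are therefore near what the detection of each ligand alone gives, and do not show that ligand and receptor go together.

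EGFR had no read in 4 CTCs. CTC 5541-1 had ERBB2 at 27.0 with AREG at 523, CTC 5545-11 had ERBB3 at 7.22 with AREG at 486, and CTC 5546-s9 had ERBB3 at 25.9 with AREG at 53.9. Each of these 3 had another receptor of the family and reads of AREG, EREG and HBEGF. CTC 5545-6, with 2227 genes detected, had no read of any member. The median number of genes detected was 7438 in CTCs with EGFR and EREG and 6759 in the 3 CTCs with EREG but not EGFR. For ERBB3 the order was the other way, with 6759 in CTCs with ERBB3 and EREG and 7493 in those with EREG but not ERBB3. The part of the number of genes detected in these counts was not tested.

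Detection was also counted at equal depth. With 469614 reads drawn from every cell, as many as the shallowest CTC had, EGFR was present in 31 CTCs, AREG in 34, EREG in 36, HBEGF in 32, ERBB2 in 13 and ERBB3 in 7. TGFA remained in 4 of 6 cultured cells and in no CTC.

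**Figure D4:**
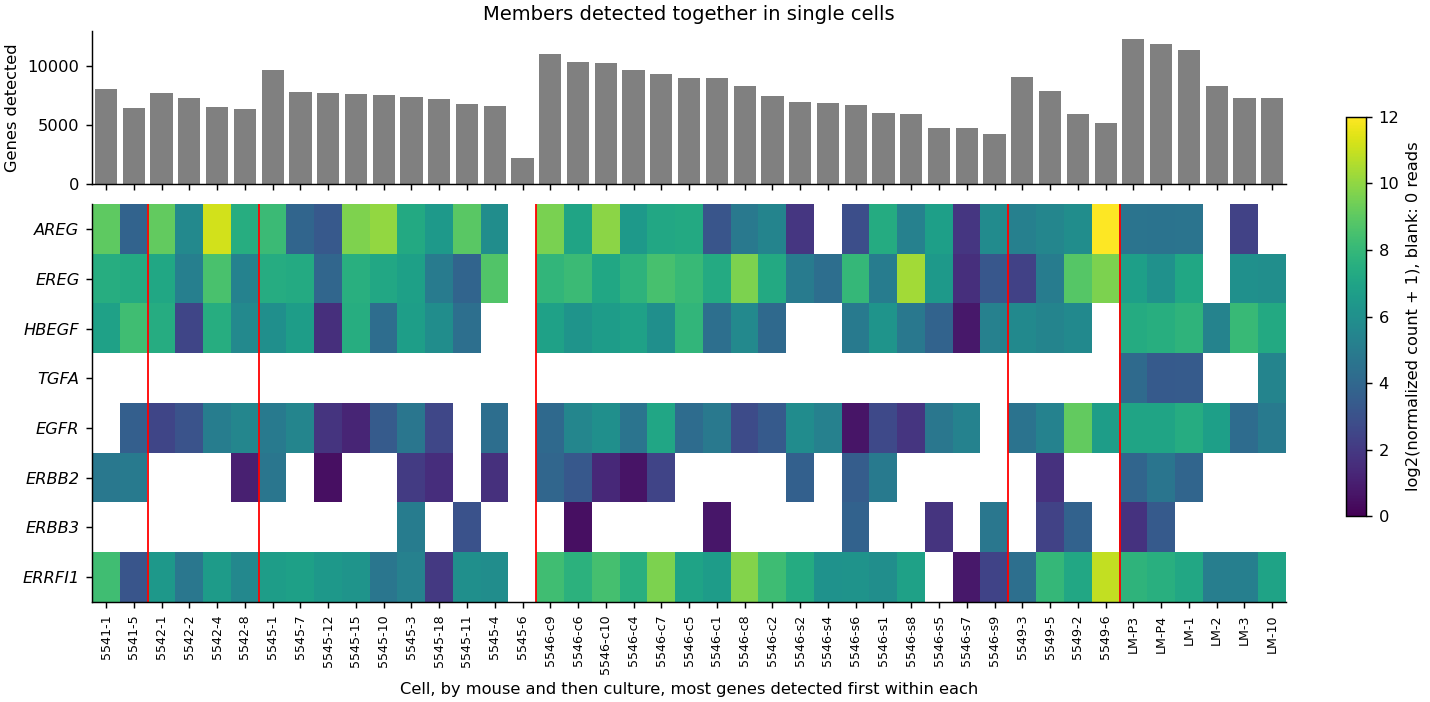
Genes detected in each cell (upper bars) and the level of each member in the same cell (lower panel, log2 of the normalized count plus 1, blank where there was no read), by mouse and culture. EGFR and at least 1 ligand are filled together in 33 of 37 CTC columns, the TGFA row is blank over all CTCs, and the column of CTC 5545-6 is blank.

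Likeness between members was described by Spearman's ρ over the 37 CTCs, which share sequencing depth and genes detected within a library. EREG and ERRFI1 had the highest ρ of the 21 pairs, at 0.621. ERRFI1 ranked 25 among the 8528 protein-coding genes compared with EREG, and EREG ranked 20 for ERRFI1. The coefficient was 0.616 after thinning, 0.622 without the libraries with the letter s, 0.590 without CTC 5545-6, 0.620 in mouse 5546 (17 CTCs) and 0.430 in mouse 5545 (10 CTCs). ERRFI1 itself had a ρ of 0.561 with the number of genes detected, and EREG of 0.242.

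AREG and HBEGF had a ρ of 0.468, which was 0.800 in mouse 5546 and 0.462 in mouse 5545, and 0.313 without the libraries with the letter s. HBEGF ranked 174 among the 8528 genes compared with AREG, and AREG ranked 434 for HBEGF. The neighbors AREG and EREG had a ρ of 0.332, with EREG at rank 1017 for AREG and AREG at rank 1438 for EREG. The median ρ with all genes compared was 0.127 for AREG and 0.165 for EREG. EGFR was close to 0 with AREG (0.063) and HBEGF (-0.030). With EREG it was 0.222, but 0.596 in mouse 5545 and -0.123 in mouse 5546. With ERRFI1 it was 0.347. The median ρ of EGFR with all genes compared was 0.085.

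**Figure D5:**
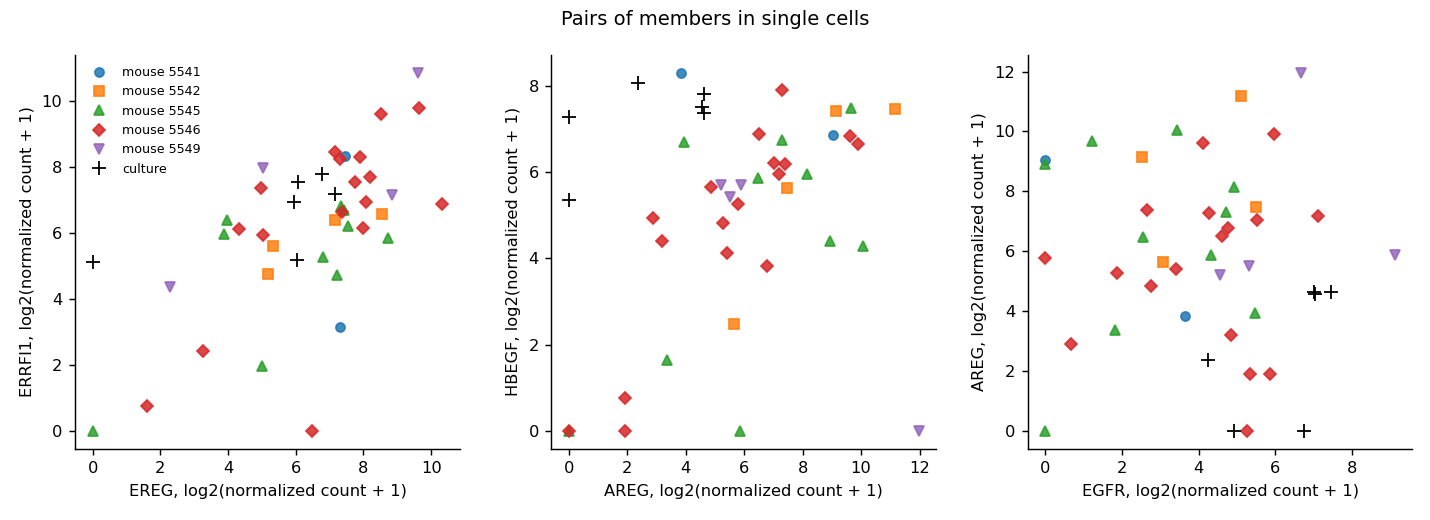
Levels of 3 pairs of members in single cells, as log2 of the normalized count plus 1, with CTCs colored by mouse and cultured cells as crosses. The Spearman coefficient over the 37 CTCs was 0.621 for EREG and ERRFI1, 0.468 for AREG and HBEGF and 0.063 for EGFR and AREG.

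The genes most like a member over the 37 CTCs were, for AREG, IL32 (ρ 0.721), SMTN (0.685) and NMT1 (0.670). EREG was most like THOC2 (0.733), IGF2BP2 (0.728) and C1orf52 (0.704), and HBEGF most like GALNT11 (0.706), ENTPD6 (0.702) and RARS1 (0.663). For EGFR they were TRIM25 (0.659), ZNF331 (0.601) and NOL8 (0.595), for ERBB2 SLC44A1 (0.690), CCNJL (0.655) and GMEB2 (0.629), and for ERRFI1 RIOK3 (0.713), NR1D1 (0.694) and YY1AP1 (0.692). These are the highest of 8528 values for each member and describe these cells.

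The split of mouse 5546 by letter touched the members unequally. AREG had a mean of 259 in the 9 libraries with c and 47.2 in the 8 with s, ERRFI1 of 362 and 60.7, and HBEGF of 87.6 and 22.5. EREG had means of 293 and 215, with medians of 235 and 31.1, since CTC 5546-s8 alone had 1284. EGFR had means of 38.2 and 21.0. ERBB2 and ERBB3 were the other way, with means of 3.34 and 6.36 for ERBB2 and of 0.118 and 5.14 for ERBB3. The letters and the number of genes detected cannot be told apart. Without the libraries with s, the log2 ratio over the 5 mice was 5.30 for AREG and 0.96 for ERRFI1.

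Of 54 other genes of the pathway, 51 were in the table and 36 could pass the rule of size. None was past it in either direction, beside 0.0655% higher and 5.31% lower of all genes. All 5 mouse means were below the culture mean for 16 of the 36 and above it for 0, while 60.3% of the 9164 genes had all 5 below and 1.04% all 5 above. The median log2 ratio of the 36 genes was -0.93, beside -1.20 for all genes. Among sheddases and their partners, 2 of the 4 that could pass had all 5 mice below culture, among adaptors 3 of 7, in the RAS-MAPK arm 4 of 8, in the PI3K and STAT arm 1 of 5, among negative regulators 4 of 7 and among sorting factors 2 of 4.

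Of the other ligands, NRG1, which binds ERBB3 and ERBB4, was detected in 23 CTCs and all 6 cultured cells. Its mouse means were 55.1, 34.0, 22.1, 6.20 and 682 beside 70.0 in culture, and CTC 5549-6 alone had 2346. BTC had reads in 8 CTCs and 1 cultured cell, EGF in 2 and 1, EPGN in 1 and 2, and NRG4 in 1 and 0. The outer genes of the cluster on chromosome 4, EPGN and BTC, were thus detected in fewer CTCs than AREG and EREG. The receptor ERBB4 had reads in 2 CTCs and no cultured cell. NRG2, NRG3 and the ubiquitin ligase gene CBLC were not rows of the table. The highest levels per kilobase over CTCs were those of MAP2K2, a MAPK kinase (79.4), STUB1, a ubiquitin ligase (79.1), and HRAS (57.6).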

How the data were processed

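The deposited table holds a normalized signal, in which the authors scaled the read number of a gene by a size factor per cell from DESeq2 1.42.1. Their methods and processing notes give STAR 2.7.10a, the genome GRCh38 and the annotation GENCODE 38, with uniquely mapped reads kept and strand ignored. Dividing by the smallest nonzero value of a cell gave whole reads for 100% of values (tolerance 0.001), and these reads served for depth, CPM, thinning and the count tests. Mice and culture were taken from the labels, and 4 labeled CTCs had no column. The paper filtered out CTCs with a low share of uniquely mapped reads or a high share of mitochondrial reads. The CTCs with a column are as many as it kept. Gene names and coordinates were from GENCODE 44, with 25565 of 25739 identifiers matched.

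The members and lists were chosen with earlier results of these data known. Named genes were the 8 members, the receptors and ligands of the pathway list, its 3 genes with the highest level per kilobase, any past the rule of size or called, and the 3 protein-coding genes most like each member detected in at least 30% of CTCs.

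Calculations used Python 3.11.15, pandas 2.3.3, scipy 1.17.1, R 4.3.3, edgeR 4.0.16 and DESeq2 1.42.0. In the edgeR test, the culture is given the variability estimated from mice. Nothing in the labels says that mice were handled apart, so spread between mice can include technical spread. The rule of size and the count test were also run on simulated data. For the count test, the spread of the simulated counts was fixed and not estimated from these mice. That run therefore does not show how the count test performs on these data. Alternatives were other pseudocounts and scalings, the median within mice, no minimum mean, other detection limits, thinning, and leaving out libraries, mice and cultured cells.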

Additional observations from a re-analysis of the deposited data

Results flagged for a closer look

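In 49 groups of 4 to 10 values (a member in the CTCs of a mouse, in the libraries of mouse 5546 with either letter, in culture, or over the 5 mouse means), 7 held a sample far from the others on the log2 scale by Dixon's test. The chance rate of about 1 in 20 for this test holds for normal values. Values of single cells with many 0s are not normal, so the 7 groups are a list for a closer look and no excess over chance. AREG in CTC 5549-6 was 4006, beside 58.3 in the next CTC of mouse 5549. The same CTC had HBEGF at 0, beside 41.8 in the next. ERBB2 was 1.08 in CTC 5542-8 and 2.32 in CTC 5549-5, each beside 0 in the other CTCs of its mouse. A value that has only 0s beside it in these groups is always flagged, however small it is. In CTC 5545-1 ERBB2 was 25.3, beside 3.31 in the next. In culture, LM-2 had EREG at 0, beside 60.3, and HBEGF at 40.1, beside 155.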

How the results depend on the processing

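A count of genes past the rule of size moved by more than 1.5 times in 9 of 19 settings. With 0.1 added to the means, 17 genes were higher in CTCs, and with 10 added 3 were higher and 120 lower, in place of 6 and 487. CPM gave 12 higher and 137 lower, and the median within mice 2 and 1357. The 7 CTCs without neutrophil reads, a choice made after seeing the data, gave 48 and 1537 with only 2 mouse means to pass. Leaving out 1 mouse or cultured cell gave 5 to 13 higher and 397 to 757 lower, with 13 without mouse 5541, 12 without 5546, 10 without 5549 and 757 without 5545. The members with every mouse on 1 side of the culture were 3 to 5, with 5 without mouse 5541. The edgeR test called 0 to 1 genes with a mouse or cultured cell left out, 27 without the filter and 15 with DESeq2. EGFR with a ligand was found in 85% to 92.6% of CTCs with a mouse left out and in 62.2% at a value of at least 8.

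AREG kept its direction in 21 settings, with a log2 ratio of 3.60 to 5.82, and TGFA with -7.03 to -1.20, which is set by the value added. AREG lost its call with the median within mice and, in a setting added after seeing the data, without its highest CTC. TGFA lost it with 10 added and without LM-10. In the 7 CTCs of 2 mice without neutrophil reads, the log2 ratio was 4.10 for AREG, 0.81 for EREG and -2.84 for EGFR. It was -0.13 for ERRFI1 (0.79 over all CTCs) and 0.90 for ERBB2 (-0.19). Only 2 mouse means had to pass the rule of size there. EGFR was past it as 1 of 1537 genes lower in CTCs, in place of 487 such genes with all 5 mice. These 7 CTCs came from mice 5541 and 5545, so the other mice were left out as well. For EGFR, mice 5541 and 5545 had means of 5.74 and 13.6 over all their CTCs, beside 50.1 over the 5 mice. For EREG they were 167 and 126 (203), for ERRFI1 165 and 55.8 (216) and for ERBB2 28.6 and 3.31 (7.50). Mice and neutrophil reads thus changed together in this setting, and the cause of the shifts in these log2 ratios was not tested. No paired analysis was possible because the numbers in the library names name picked cells and pair no CTC with a cultured cell. Reads carry no molecular identifiers. Among CTCs with a read of the gene, the median was 5 reads for ERBB2 (at most 54) and 9 for ERBB3 (at most 48), which limits the precision of their levels.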
